A study of Mus musculus with 17 samples.

Results

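The Hox cluster genes are the genes named Hoxa, Hoxb, Hoxc or Hoxd with a number in the gene count table. All 39 such genes, of 20621 genes in the table, are described here whatever their counts. They were read in E14 mouse embryonic stem cells of 2 genotypes, RNAPII-mut and wild type (WT). RNAPII-mut cells carry the slow/slow genotype, in which RNA polymerase II elongates slowly, and WT cells are its unmutated counterpart. Both were grown without feeder cells on gelatine, in medium with 10% serum and 1000 U/mL LIF. The naive state was induced with 2i, which is 1 µM PD0325901 (an inhibitor of MEK) and 3 µM CHIR99021 (an inhibitor of GSK3) added to that medium for 1, 2 or 7 days, and day 0 is serum and LIF alone. Total RNA gave 17 libraries, 2 for each genotype and day and 3 for RNAPII-mut cells at day 1. The labels do not say whether the libraries of a group come from separate cultures or whether a genotype is more than 1 clone, so p-values measure only the spread between these libraries, which may be technical.

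Hox genes encode homeodomain transcription factors that give cells of the embryo their position along the head-to-tail axis. They lie in 4 clusters, and within a cluster the order of the genes on the chromosome follows the order in which they are used along that axis. Low paralogue numbers act in the hindbrain and neck, high numbers in the trunk, tail, limbs and genital tract. In embryonic stem cells the clusters are textbook targets of Polycomb repression, and they are switched on during differentiation by signals that include retinoic acid, FGF and Wnt, the last partly through the Cdx factors.

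Library totals lay between 47350441 and 56138844 counts, and levels are given as CPM, the count scaled to library size with edgeR's TMM method. On that scale 3 counts in a pair of libraries are about 0.03 CPM. Over the 17 libraries Pou5f1, the defining pluripotency factor, had 949 to 2430 CPM, Nanog 213 to 826 CPM and Sox2 344 to 673 CPM, so the markers of embryonic stem cells were present in every library. Some WT libraries stood apart. Day 0 replicate 1 and day 1 replicate 1 carried transcripts of mesoderm and smooth muscle. T, the primitive streak factor, had 113 CPM in WT day 0 replicate 1 and 0.203 CPM in replicate 2. Acta2, smooth muscle actin, had 151 and 0.101 CPM there. Acta2 was also high in WT day 1 replicate 1 (327 CPM) and WT day 2 replicate 1 (41.5 CPM), against 0.0363 to 1.95 CPM over the 9 RNAPII-mut libraries. Gata6, a primitive endoderm factor, was highest in the other WT series, with 28.2, 8.51, 6.27 and 4.61 CPM in WT replicate 2 at days 0, 1, 2 and 7, against 0.401 to 0.703 CPM in RNAPII-mut libraries. WT libraries with the same replicate number deviated together from their group means at every pair of days (Pearson r 0.24 to 0.74 across genes), so a fit that also holds the WT replicate series is given beside the results where its calls differ.

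Hox transcripts were scarce. Of the 39 genes, 32 passed edgeR's filter on low counts and entered the tests with 15365 genes in all, and 19 reached 1 CPM in at least 2 libraries. The median over the 32 tested Hox genes of the mean level was 0.594 CPM, against 18.3 CPM over all genes tested, and all 32 lay below that all-gene median. Per kilobase of annotated exon, the scale on which genes can be compared, Hoxc12, Hoxc13 and Hoxc4 were among the highest. At day 7 Hoxc12 had 8.10 ± 0.21 CPM per kilobase in RNAPII-mut cells and 4.60 ± 2.88 in WT cells (SD, n = 2 each here and for the other levels per kilobase). Hoxc13 had 5.74 ± 0.86 and 5.98 ± 1.31, and Hoxc4 3.87 and 2.69 CPM per kilobase in RNAPII-mut and WT cells at day 7. At day 0 Hoxc13 stood at 1.05 CPM per kilobase in each genotype. In WT cells Hoxb9 was level with Hoxc13 at 1.03 CPM per kilobase.

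**Figure D1:**
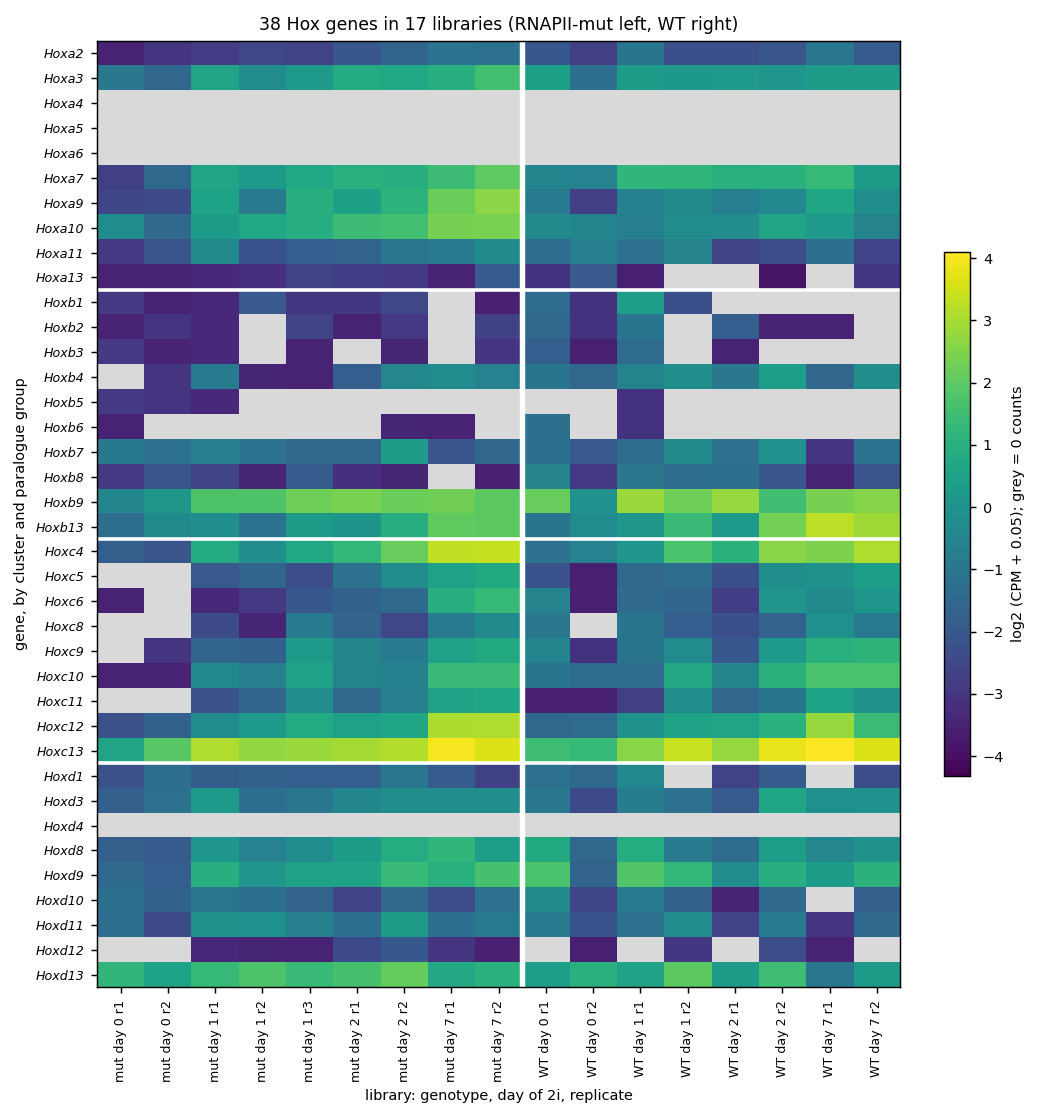
Level of 38 of the 39 Hox genes (rows, by cluster and paralogue number) in each of the 17 libraries (columns, RNAPII-mut left and WT right, by day of 2i), as log2 of CPM plus 0.05, with grey for 0 counts. The Hoxc rows brighten from day 0 to day 7 in both genotypes, while 4 genes, Hoxa4, Hoxa5, Hoxa6 and Hoxd4, have 0 counts in every library.

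The clusters lie on chromosome 6 (Hoxa, 11 genes) and at chr11:96194316-96368256 (Hoxb, 10 genes), chr15:102921103-103036852 (Hoxc, 9 genes) and chr2:74668310-74765142 (Hoxd, 9 genes) in mm10, by the GENCODE annotation. All 9 Hoxc genes were tested, 8 of 11 Hoxa, 8 of 10 Hoxb and 7 of 9 Hoxd genes. Hoxb5, Hoxb6 and Hoxd12 had counts but fell short of the filter, the highest value among them being 0.385 CPM for Hoxb6 in WT day 0 replicate 1. Hoxa4, Hoxa5, Hoxa6 and Hoxd4 had 0 counts in all 17 libraries. Their annotated spans lie inside that of Hoxa3 or Hoxd3, and 207 of 425 genes nested in another gene of the table in this way (48.7%) were at 0 in every library, against 2349 of 19324 genes that are not nested (12.2%). The zeros of these 4 genes therefore cannot be read as missing expression. The counts were also mostly even, 423 of 531 nonzero Hox values (79.7%), so if both ends of a read pair were counted, counting intervals and floors given here are too narrow. The strand setting of the counting is not given in the sources used here, so reads from overlapping antisense genes cannot be told apart. Exons of other annotated genes, on either strand, cover 62.8% of the exonic bases of Hoxd3, 52.9% of Hoxb3, 52.3% of Hoxd4, 35.0% of Hoxa11, 27.3% of Hoxb2, 27.1% of Hoxa3 and 20.4% of Hoxa7. In the Hoxc cluster such exons cover 8.70% of Hoxc10, 5.37% of Hoxc5 and no base of the other genes.

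After 7 days of 2i, RNAPII-mut cells had more Hox RNA than at day 0. Of the 32 tested genes, 19 rose and 0 fell in RNAPII-mut cells at day 7 against day 0 (edgeR quasi-likelihood test with Benjamini-Hochberg adjustment over all 15365 genes, adjusted p under 0.05, as for every adjusted p unless another test is named). Of all genes tested, 7.2% rose and 6.96% fell in that comparison. More cells with a transcript and more RNA per cell cannot be told apart in bulk RNA. The median log2 difference was 2.72 over the 32 Hox genes and 0.00 over all genes. In WT cells 7 Hox genes rose and 0 fell at day 7 against day 0, where 6.62% of all genes rose and 6.1% fell, with a median log2 difference of 0.76 over the 32 and -0.01 over all genes. All 7 were among the 19 of RNAPII-mut cells. The overlap of such lists over all genes is not given here, so this is not shown to be a trait of the Hox genes. With the WT replicate series in the model, 20 Hox genes rose in RNAPII-mut cells, and in WT cells 10 rose and 2 fell, the 2 being Hoxb1 (adjusted p = 0.019) and Hoxd13. The counts over all genes moved in that model as well. The fall of Hoxb1 was from 24 counts over the WT day 0 libraries to 0 at day 7. Those day 0 libraries lay far apart, at 0.0867 ± 0.0814 CPM per kilobase (SD, n = 2). In RNAPII-mut cells 23 Hox genes had both day 7 libraries above both day 0 libraries and 3 had them below, against 34.6% and 34.2% of all genes. In WT cells 16 lay above and 5 below, against 28% and 26.5% of all genes.

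**Figure D2:**
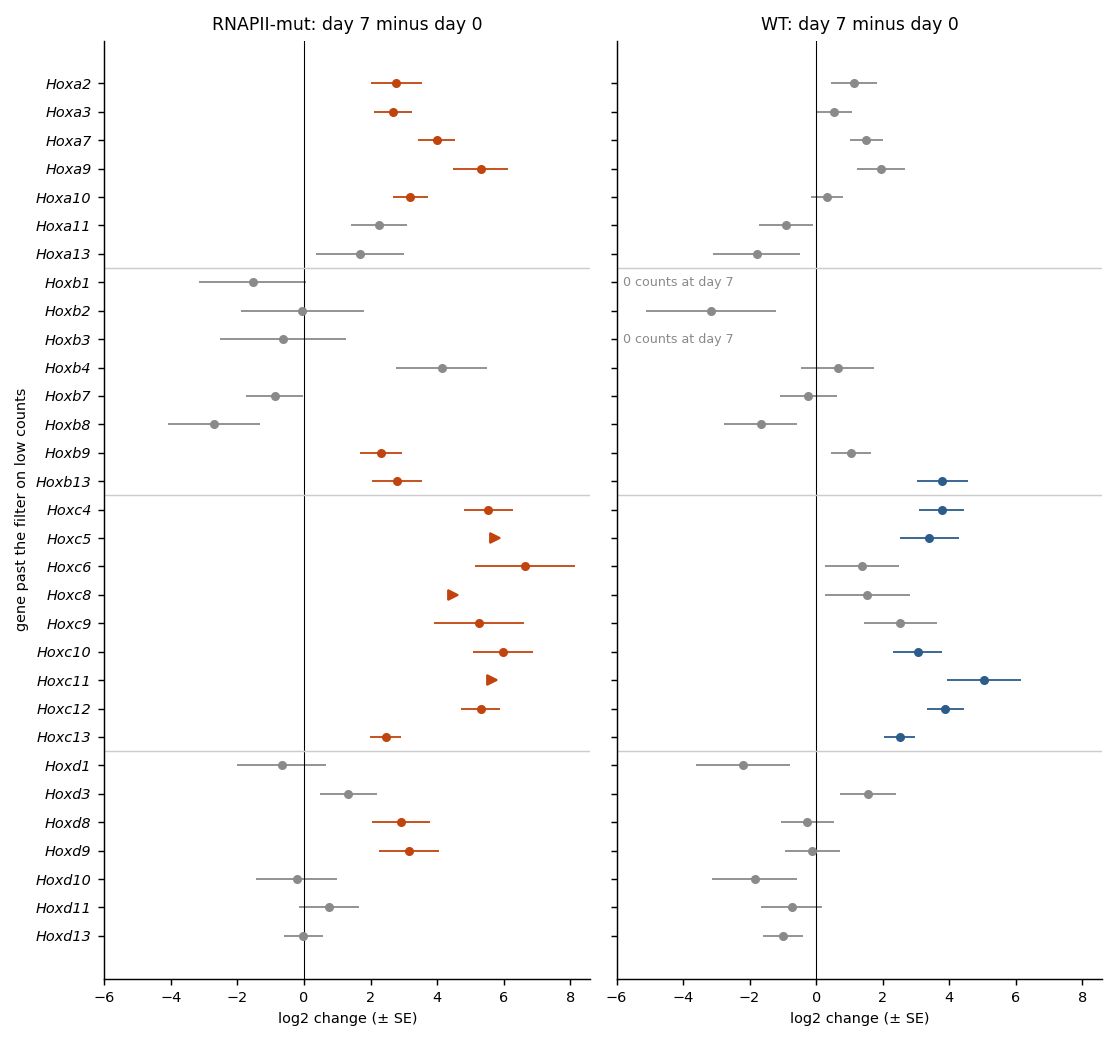
Log2 difference between day 7 and day 0 of 2i (x axis, ± SE) for 31 of the 32 tested Hox genes in RNAPII-mut (left) and WT cells (right), coloured where adjusted p was under 0.05 and grey otherwise. Arrowheads mark lower bounds for genes with 0 counts at day 0, and 2 WT genes with 0 counts at day 7 are written out. All 9 Hoxc genes are coloured in RNAPII-mut cells.

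In the Hoxc cluster 9 of 9 genes rose in RNAPII-mut cells at day 7, against 6 of 8 Hoxa, 2 of 8 Hoxb and 2 of 7 Hoxd genes. Whether these shares differ between clusters was not tested. At its posterior end, Hoxc13, which is needed for hair and nails, had 1.44 and 3.72 CPM at day 0, 8.45, 6.56 and 7.07 at day 1, 7.81 and 8.69 at day 2, and 15.6 and 12.6 at day 7 in RNAPII-mut cells. In WT cells Hoxc13 had 2.75 and 2.44 CPM at day 0, 6.03 and 10.4 at day 1, 6.77 and 13.9 at day 2, and 17 and 12.4 at day 7. Day 7 lay above day 0 without overlap in both genotypes, with a log2 difference of 2.45 ± 0.46 (SE, adjusted p = 0.00387) in RNAPII-mut cells and 2.51 ± 0.46 (SE, adjusted p = 0.00528) in WT cells. Hoxc12, a posterior gene beside it, had 0.161 and 0.255 CPM at day 0, 0.785, 1.09 and 1.73 at day 1, 1.35 and 1.52 at day 2, and 8.2 and 8.5 at day 7 in RNAPII-mut cells. In WT cells Hoxc12 had 0.301 and 0.338 CPM at day 0, 0.943 and 1.39 at day 1, 1.47 and 2.03 at day 2, and 6.84 and 2.64 at day 7. Both day 7 libraries again exceeded both day 0 libraries, although the 2 WT libraries of day 7 lay far apart. The log2 difference was 5.31 ± 0.59 (SE, adjusted p = 0.000206) in RNAPII-mut cells and 3.88 ± 0.55 (SE, adjusted p = 0.00138) in WT cells.

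Hoxc10, a gene of the lumbar trunk and hindlimb, had 0.0401 and 0.0365 CPM at day 0, 0.716, 0.578 and 1.38 at day 1, 0.644 and 0.607 at day 2, and 2.57 and 2.56 at day 7 in RNAPII-mut cells. In WT cells Hoxc10 had 0.435 and 0.338 CPM at day 0, 0.337 and 1.65 at day 1, 0.665 and 2.05 at day 2, and 3.22 and 3.22 at day 7. The mutant libraries began lower at day 0 and ended lower at day 7. The log2 difference between those days was 5.98 ± 0.91 (SE, adjusted p = 0.00118) in RNAPII-mut cells and 3.05 ± 0.73 (SE, adjusted p = 0.0178) in WT cells. Hoxc11 had 0 and 0 CPM at day 0, 0.162, 0.289 and 0.777 at day 1, 0.312 and 0.586 at day 2, and 1.39 and 1.49 at day 7 in RNAPII-mut cells. In WT cells Hoxc11 had 0.0335 and 0.0338 CPM at day 0, 0.101 and 0.844 at day 1, 0.293 and 0.429 at day 2, and 1.42 and 0.936 at day 7. With 0 counts in RNAPII-mut cells at day 0, its level there was at least 50.2-fold higher at day 7, taking 3 counts over the day 0 group as the floor (adjusted p = 0.00292). In WT cells its log2 difference was 5.04 ± 1.10 (SE, adjusted p = 0.0129). Hoxc9, which specifies thoracic motor neurons, rose in RNAPII-mut cells to 1.37 and 1.69 CPM at day 7, against 0 and 0.073 CPM at day 0 (adjusted p = 0.021). In WT cells Hoxc9 had 2.00 and 2.17 CPM at day 7 and 0.653 and 0.0677 CPM at day 0, and did not pass the test.

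The central genes of the cluster did likewise. Hoxc4, at the anterior end, had 0.241 and 0.182 CPM at day 0, 1.71, 0.825 and 1.57 at day 1, 2.34 and 4.33 at day 2, and 9.68 and 10.2 at day 7 in RNAPII-mut cells. In WT cells Hoxc4 had 0.402 and 0.609 CPM at day 0, 1.03 and 3.2 at day 1, 2.05 and 6.08 at day 2, and 5.4 and 8.43 at day 7. Levels at day 7 were above those at day 0 in every library, by a log2 difference of 5.54 ± 0.75 (SE, adjusted p = 0.000596) in RNAPII-mut cells and 3.77 ± 0.68 (SE, adjusted p = 0.00478) in WT cells. Hoxc5 had 0 and 0 CPM at day 0, 0.208, 0.289 and 0.155 at day 1, 0.39 and 0.809 at day 2, and 1.37 and 1.67 at day 7 in RNAPII-mut cells. In WT cells Hoxc5 had 0.167 and 0.0338 CPM at day 0, 0.303 and 0.353 at day 1, 0.156 and 0.858 at day 2, and 0.925 and 1.24 at day 7. Its level in RNAPII-mut cells was at least 53.0-fold higher at day 7 than the floor at day 0 (adjusted p = 0.00152). In WT cells its log2 difference was 3.39 ± 0.89 (SE, adjusted p = 0.0285). Of its exonic bases, 5.37% are shared with Hoxc10, so a few reads could belong to either. Hoxc6, a thoracic gene, had 0.0401 and 0 CPM at day 0, 0.0462, 0.0825 and 0.194 at day 1, 0.254 and 0.324 at day 2, and 1.9 and 2.42 at day 7 in RNAPII-mut cells. In WT cells Hoxc6 had 0.636 and 0.0338 CPM at day 0, 0.32 and 0.275 at day 1, 0.0978 and 1.01 at day 2, and 0.74 and 1.01 at day 7. The mutant day 7 libraries held 236 counts against 2 at day 0, a ratio of CPM of 113 with a 95% counting interval of 31.0 to 939 (adjusted p = 0.0115). In WT cells both day 7 libraries also lay above both of day 0, with no call. Hoxc8, which patterns the thorax and forelimb motor neurons, had 0.517 and 0.763 CPM in RNAPII-mut cells at day 7 and 0 counts at day 0, at least 22.4-fold higher (adjusted p = 0.0333). In WT cells Hoxc8 had 0.888 and 0.487 CPM at day 7 and 0.469 and 0 CPM at day 0, with no call.

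**Figure D3:**
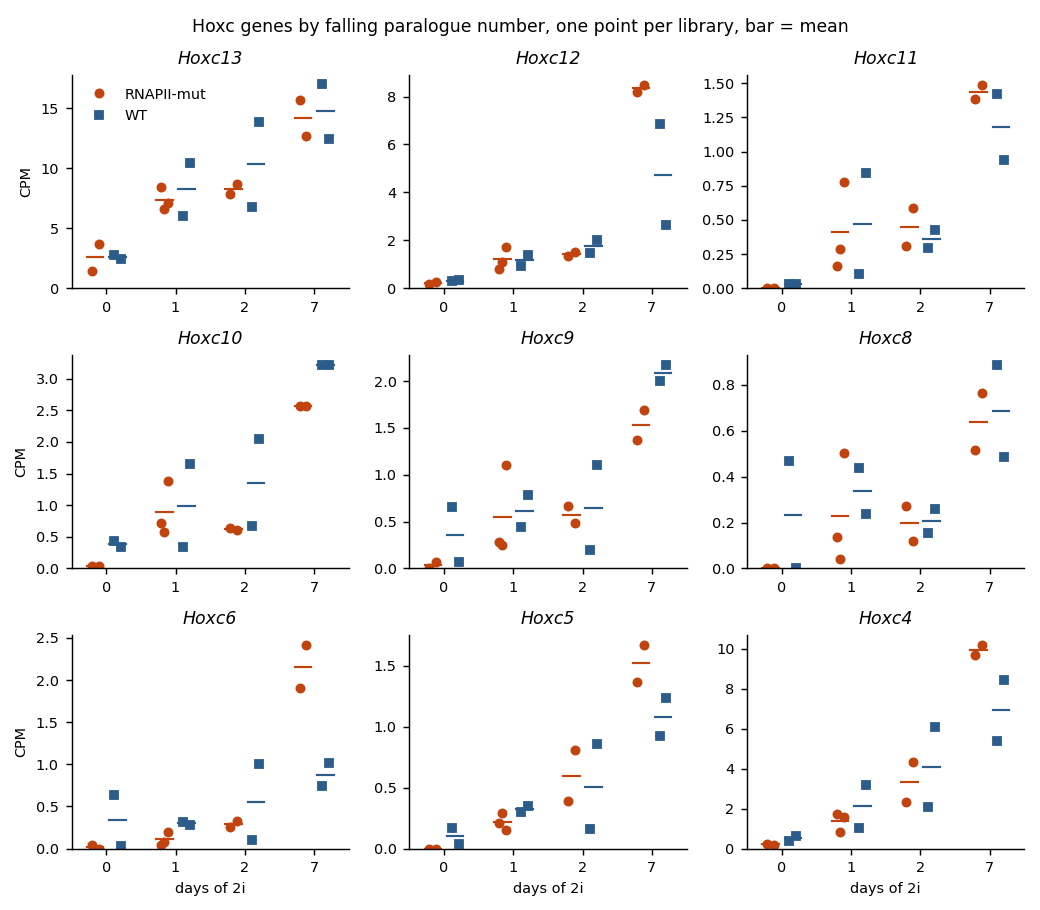
CPM of the 9 Hoxc genes (1 panel each, from Hoxc13 to Hoxc4) at 0, 1, 2 and 7 days of 2i, with 1 point per library, circles for RNAPII-mut and squares for WT, and a bar at the mean. In RNAPII-mut cells all 9 genes are highest at day 7, with both day 7 libraries above both day 0 libraries.

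In the Hoxa cluster the rise passed the test in RNAPII-mut cells for 6 of 8 genes, among them Hoxa7, Hoxa9 and Hoxa10, and in WT cells for 0 of 8. In WT cells 2 of the 8 had an unadjusted p under 0.05, and DESeq2 called Hoxa7 and Hoxa9 there. Hoxa3, which is needed for the thymus and parathyroid, had 0.462 and 0.292 CPM at day 0, 1.46, 0.784 and 1.11 at day 1, 1.76 and 1.56 at day 2, and 1.94 and 2.89 at day 7 in RNAPII-mut cells. In WT cells Hoxa3 had 1.29 and 0.372 CPM at day 0, 1.14 and 1.08 at day 1, 1.11 and 0.989 at day 2, and 1.18 and 1.22 at day 7. The mutant libraries separated by day, with a log2 difference of 2.67 ± 0.57 (SE, adjusted p = 0.00822), while WT day 0 replicate 1 lay above both WT day 7 libraries.

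Hoxa7, a gene of the thoracic skeleton, had 0.1 and 0.31 CPM at day 0, 1.46, 1.13 and 1.57 at day 1, 1.99 and 1.92 at day 2, and 2.7 and 3.94 at day 7 in RNAPII-mut cells. In WT cells Hoxa7 had 0.653 and 0.609 CPM at day 0, 2.26 and 2.24 at day 1, 1.98 and 2.01 at day 2, and 2.42 and 1.16 at day 7. The log2 difference between day 7 and day 0 was 3.99 ± 0.55 (SE, adjusted p = 0.00073) in RNAPII-mut cells and 1.5 ± 0.49 (SE, adjusted p = 0.0627) in WT cells, where the day groups did not overlap and the gene passed with the WT replicate series in the model (adjusted p = 0.031). Hoxa9, which acts in blood progenitors and in leukaemia, had 0.12 and 0.146 CPM at day 0, 1.43, 0.495 and 1.9 at day 1, 1.33 and 2.14 at day 2, and 4.54 and 6.21 at day 7 in RNAPII-mut cells. In WT cells Hoxa9 had 0.519 and 0.101 CPM at day 0, 0.606 and 0.746 at day 1, 0.567 and 0.709 at day 2, and 1.53 and 0.862 at day 7. Its log2 difference was 5.31 ± 0.83 (SE, adjusted p = 0.00136) in RNAPII-mut cells and 1.94 ± 0.72 (SE, adjusted p = 0.0931) in WT cells. Hoxa10, which is needed in the uterus, had 0.803 and 0.328 CPM at day 0, 1.15, 1.61 and 1.83 at day 1, 2.65 and 2.87 at day 2, and 5.1 and 5.23 at day 7 in RNAPII-mut cells. In WT cells Hoxa10 had 0.77 and 0.643 CPM at day 0, 0.572 and 0.785 at day 1, 0.821 and 1.46 at day 2, and 1.13 and 0.637 at day 7. The mutant libraries of each later day lay above all those of the day before. Between day 7 and day 0 the log2 difference was 3.19 ± 0.52 (SE, adjusted p = 0.00178) in RNAPII-mut cells and 0.32 ± 0.49 (SE, adjusted p = 0.695) in WT cells. Hoxa2, a hindbrain gene, rose in RNAPII-mut cells to 0.406 and 0.400 CPM at day 7, against 0.0401 and 0.073 CPM at day 0 (adjusted p = 0.0293). Hoxa11 and Hoxa13 stayed below 0.8 CPM in all libraries and were not called.

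In the Hoxb cluster Hoxb9 and Hoxb13, its 2 most posterior genes, rose in RNAPII-mut cells, and Hoxb13 rose in WT cells. Of the 8 tested genes, 5 had a negative log2 difference at day 7 in each genotype, though 0 were called lower. The median over the 8 was -0.34 in RNAPII-mut cells and -0.95 in WT cells. In RNAPII-mut cells 3 of the 8 had both day 7 libraries above both of day 0 and 3 had them below. Hoxb13, known from the prostate and the tail end of the spine, had 0.361 and 0.766 CPM at day 0, 0.832, 0.413 and 1.17 at day 1, 0.976 and 1.86 at day 2, and 4.03 and 3.85 at day 7 in RNAPII-mut cells. In WT cells Hoxb13 had 0.435 and 0.778 CPM at day 0, 1.04 and 2.55 at day 1, 1.1 and 4.96 at day 2, and 9.41 and 7.45 at day 7. Day 7 stood above every day 0 library in both genotypes, by a log2 difference of 2.80 ± 0.75 (SE, adjusted p = 0.0259) in RNAPII-mut cells and 3.79 ± 0.78 (SE, adjusted p = 0.00836) in WT cells. Hoxb9, which patterns the rib cage, had 0.682 and 1.06 CPM at day 0, 3.33, 3.38 and 4.66 at day 1, 5.25 and 4.53 at day 2, and 4.73 and 3.92 at day 7 in RNAPII-mut cells. In WT cells Hoxb9 had 4.39 and 0.913 CPM at day 0, 7.09 and 4.65 at day 1, 6.88 and 2.78 at day 2, and 5.16 and 5.84 at day 7. The log2 difference at day 7 was 2.31 ± 0.63 (SE, adjusted p = 0.0271) in RNAPII-mut cells and 1.05 ± 0.60 (SE, adjusted p = 0.259) in WT cells, where the gene passed with the replicate series in the model (adjusted p = 0.04). WT day 0 replicate 1, the library with mesoderm transcripts, stood far above replicate 2. Hoxb4, a gene of blood stem cells, had 0.776 and 0.618 CPM in RNAPII-mut cells at day 7 and 0 and 0.073 CPM at day 0 (adjusted p = 0.0602), and passed with the WT replicate series in the model. The anterior genes Hoxb1, Hoxb2 and Hoxb3 had at most 0.206 CPM in any RNAPII-mut library. Hoxb7 had at most 1.21 CPM in any library and was not called at any day. Hoxb1, a hindbrain gene, was highest in WT day 1 replicate 1 with 1.25 CPM, and had 0 counts in both WT libraries at day 2 and at day 7.

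In the Hoxd cluster Hoxd8 and Hoxd9 rose in RNAPII-mut cells at day 7, while in WT cells edgeR called 0 of the 7 tested genes and 0 had an unadjusted p under 0.05. With the WT replicate series in the model Hoxd13 fell in WT cells (adjusted p = 0.044). Hoxd8 had 2.25 and 1.24 CPM in RNAPII-mut cells at day 7 and 0.241 and 0.219 CPM at day 0 (adjusted p = 0.0413). In WT cells it had 0.703 and 0.936 CPM at day 7 and 1.67 and 0.304 CPM at day 0. Hoxd9, a gene of the limbs and lower spine, had 0.321 and 0.237 CPM at day 0, 1.89, 0.99 and 1.4 at day 1, 1.41 and 2.59 at day 2, and 1.96 and 3.05 at day 7 in RNAPII-mut cells. In WT cells Hoxd9 had 3.23 and 0.271 CPM at day 0, 3.48 and 2.33 at day 1, 0.782 and 1.9 at day 2, and 1.18 and 2.06 at day 7. The mutant libraries separated, with a log2 difference of 3.16 ± 0.91 (SE, adjusted p = 0.0352), while WT day 0 replicate 1 exceeded both WT day 7 libraries and the WT log2 difference was -0.11 ± 0.81 (SE, adjusted p = 0.944). Hoxd13, which shapes digits and the genital tract, had 2.29 and 1.42 CPM at day 0, 2.45, 3.3 and 2.56 at day 1, 3.1 and 4.29 at day 2, and 1.63 and 2.03 at day 7 in RNAPII-mut cells. In WT cells Hoxd13 had 1.24 and 1.96 CPM at day 0, 1.38 and 3.88 at day 1, 1.21 and 2.76 at day 2, and 0.444 and 1.16 at day 7. It did not follow the genes above. The day 7 to day 0 ratio of CPM in RNAPII-mut cells was 0.998 with a 95% counting interval of 0.815 to 1.22. In WT cells both day 7 libraries lay below both day 0 libraries, with a log2 difference of -0.99 ± 0.60 (SE, adjusted p = 0.289). Hoxd1, Hoxd3, Hoxd10 and Hoxd11 had at most 1.53 CPM in any library and were not called in these comparisons.

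The day 7 calls depended on few libraries. A fit without 1 library can leave a group with 1 library. Calls over all genes also became fewer in some of these fits, so a lower count is not a trait of the Hox genes alone. In RNAPII-mut cells the 19 became 9, 10, 11 and 10 without day 0 replicate 1, day 0 replicate 2, day 7 replicate 1 and day 7 replicate 2. The genes Hoxa7, Hoxa9, Hoxa10, Hoxc4, Hoxc5, Hoxc10, Hoxc11, Hoxc12 and Hoxc13 were called whichever of the 17 libraries was left out. In WT cells the 7 became 4 without day 0 replicate 2 and 4 without day 7 replicate 1, and Hoxc4, Hoxc12 and Hoxc13 were called in all 17 fits. A fit was also made without WT day 0 replicate 1 and day 1 replicate 1, which carried mesoderm and smooth muscle transcripts. It left 1 library in each of those groups and kept WT day 2 replicate 1, with 41.5 CPM of Acta2. Its WT calls at day 7 are not counted here.

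Calls were fewer at the earlier days, which share the day 0 libraries with the day 7 comparison. Here as well, calls over all genes became fewer in some fits with a library left out. In RNAPII-mut cells at day 1 against day 0, 4 Hox genes rose and 0 fell, where 0.69% of all genes rose and 0.716% fell. They were Hoxa7 (adjusted p = 0.022), Hoxc10 (adjusted p = 0.0264), Hoxc12 (adjusted p = 0.0369) and Hoxc11 (adjusted p = 0.0458). None of the 4 was left without mutant day 0 replicate 1, day 0 replicate 2, day 1 replicate 1 or day 1 replicate 3, and 2 were left without any 1 of the 4 mutant libraries of days 2 and 7. With the replicate number of all libraries as a block 0 were called. In contrast, 9 rose with the WT replicate series in the model and DESeq2 called 12, but the counts over all genes moved in these settings as well. At day 2 against day 0, 8 rose in RNAPII-mut cells, where 1.71% of all genes rose. They were Hoxa7, Hoxa9, Hoxa10, Hoxc4, Hoxc5, Hoxc10, Hoxc11 and Hoxc12, with adjusted p between 0.00823 for Hoxa7 and 0.0301 for Hoxc10. That count became 0 without mutant day 0 replicate 1 or day 2 replicate 2, 1 without day 0 replicate 2 and 3 without day 2 replicate 1. It was higher by other settings, at 12 with the WT replicate series in the model, 14 without the WT libraries with mesoderm transcripts and 16 with DESeq2. In WT cells at day 1 against day 0, 0 Hox genes were called by edgeR (0.202% of all genes were called), 6 had an unadjusted p under 0.05, and DESeq2 called 3 (Hoxa7, Hoxc12 and Hoxc13). At day 2, Hoxc12 and Hoxc4 (adjusted p = 0.0342 for both) and Hoxc13 (adjusted p = 0.0405) rose in WT cells, where 1.16% of all genes rose, and 0 were called without WT day 0 replicate 1, WT day 0 replicate 2 or WT day 2 replicate 2. The WT day 2 count was also 0 without either mutant library of day 7, and 1 without mutant day 1 replicate 2, day 1 replicate 3 or either mutant library of day 2.

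The summed CPM of all 39 genes shows the same course as a description, with no test. In RNAPII-mut cells the sum was 12.6 and 14.7 at day 0, 40.5, 30.2 and 39.4 at day 1, 44.6 and 56.6 at day 2, and 84.0 and 88.5 at day 7. In WT cells it was 30.9 and 14.8 at day 0, 47.8 and 47.2 at day 1, 37.0 and 59.8 at day 2, and 71.3 and 64.7 at day 7. The mean sum at day 7 was 6.31 times that at day 0 in RNAPII-mut cells and 2.98 times in WT cells. The WT ratio was 4.59 against day 0 replicate 2 alone and 2.20 against day 0 replicate 1 alone. By cluster, the ratio of day 7 to day 0 was 13.6 for Hoxc, 5.65 for Hoxa, 4.04 for Hoxb and 2.22 for Hoxd in RNAPII-mut cells. In WT cells it was 7.29 for Hoxc, 1.81 for Hoxa, 2.99 for Hoxb and 0.786 for Hoxd. The Hoxb sums rose although 5 of the 8 tested Hoxb genes had a negative log2 difference in each genotype. The WT ratio for Hoxd changed direction with the day 0 library, being 0.550 against replicate 1 alone and 1.38 against replicate 2 alone. For Hoxb it was 1.98 against replicate 1 and 6.07 against replicate 2, for Hoxa 1.41 and 2.53, and for Hoxc 6.07 and 9.13. By paralogue number, the ratio in RNAPII-mut cells was 3.00 for anterior genes (1 to 3), 14.8 for central genes (4 to 8) and 6.69 for posterior genes (9 to 13), and in WT cells 1.61, 3.27 and 3.54 for the same classes. Against WT day 0 replicate 1 alone the WT ratios were 1.15, 2.25 and 2.74 for the anterior, central and posterior genes. Against replicate 2 alone they were 2.71, 6.0 and 5.01, so which of the central and posterior ratios was larger in WT cells depended on 1 library. The Hoxc cluster held 50.7 and 47.4% of the Hox sum in RNAPII-mut libraries at day 7 and 15.3 and 29.0% at day 0. In WT libraries it held 53.9 and 50.3% at day 7 and 18.9 and 26.3% at day 0.

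**Figure D4:**
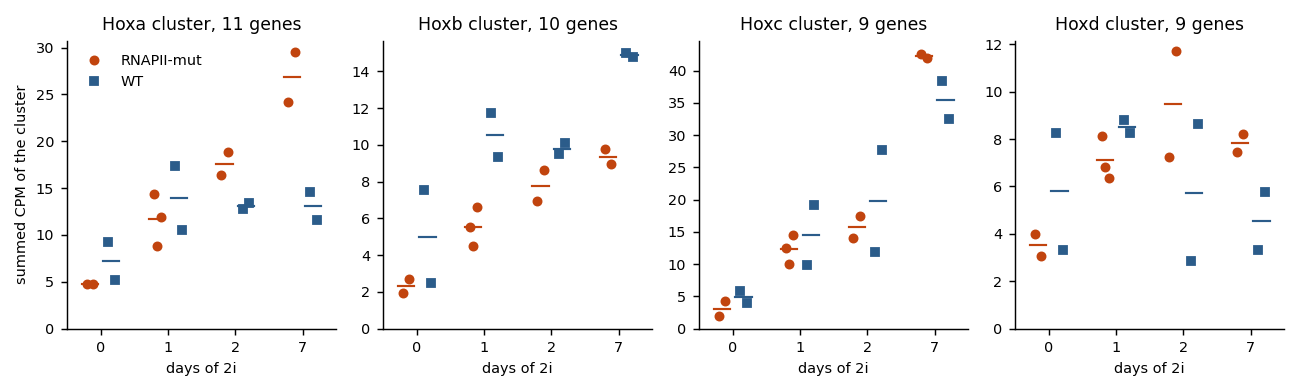
Summed CPM of the genes of each Hox cluster (1 panel per cluster, each with its own y axis from 0) at 0, 1, 2 and 7 days of 2i, with 1 point per library, circles for RNAPII-mut and squares for WT, and a bar at the mean. The Hoxc sum is the largest at day 7 in both genotypes, and the Hoxa sum of the 2 mutant day 7 libraries lies above that of both WT day 7 libraries.

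Between RNAPII-mut and WT cells no Hox gene passed edgeR's test at any single day. At days 0, 1, 2 and 7 the test called 0 Hox genes, with 0.28, 0.417, 0.0716 and 0.0976% of all genes called at those days, and 10, 3, 2 and 2 Hox genes had an unadjusted p under 0.05. DESeq2 called 2, 0, 0 and 1, which were Hoxc10 and Hoxd9 lower in RNAPII-mut cells at day 0 and Hoxa10 higher in RNAPII-mut cells at day 7. Without WT day 0 replicate 2, edgeR called Hoxd9 lower in RNAPII-mut cells at day 0. With the WT replicate series in the model, Hoxc10 was lower in RNAPII-mut cells at day 0 (log2 difference -3.34, adjusted p = 0.044) and Hoxa10 higher at day 7 (log2 difference 2.54, adjusted p = 0.023). At day 0, 29 of the 32 fitted log2 differences between RNAPII-mut and WT cells were negative. Their median was -1.31 when genes at 0 counts are set to their bound, and -0.05 over all genes. Marker lists of other cell types had lower medians at day 0, -3.17 for the stromal and smooth muscle list, -2.49 for trophoblast, -2.12 for posterior mesoderm and -2.09 for primitive endoderm. The neural list had a median of 0.12, no gene of these 5 lists passed the test, and their part in the Hox values was not tested. The Hox sum of the mutant was 0.923 times that of WT replicate 2 alone and 0.443 times that of replicate 1. At day 7, 13 of the 32 genes had both RNAPII-mut libraries above both WT libraries and 6 had them below, against 21.1% and 23.8% of all genes. Of the 13, 6 were Hoxa genes. The RNAPII-mut to WT ratio of the day 7 sum was 2.05 for Hoxa, 0.628 for Hoxb, 1.19 for Hoxc and 1.72 for Hoxd.

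Averaged over the days, Hoxa10 was higher in RNAPII-mut than in WT cells. Its level in RNAPII-mut cells lay above every WT library of the same day at days 1, 2 and 7, and at day 0 the genotypes overlapped. The log2 difference between RNAPII-mut and WT cells was 1.17 ± 0.46 (SE, adjusted p = 0.265) at day 1, 1.28 ± 0.49 (SE, adjusted p = 0.735) at day 2 and 2.55 ± 0.51 (SE, adjusted p = 0.0789) at day 7. Averaged over the 4 days it was 1.17 ± 0.24 (SE, adjusted p = 0.00888), and this passed in each of the 17 fits with a library left out (adjusted p 0.0081 to 0.03). It was the 1 Hox gene left in 9 of those fits, without mutant day 0 replicate 1 or 2, day 1 replicate 2, day 2 replicate 1 or 2 or day 7 replicate 1, or without WT replicate 2 of day 1, 2 or 7. In this averaged comparison 12.8% of all genes were called, 5.35% higher and 7.49% lower, and of the Hox genes Hoxa10 was called higher in RNAPII-mut cells and Hoxb8 and Hoxc10 lower. In the same comparison 9 of 16 stromal and smooth muscle genes, 9 of 14 primitive endoderm genes, 5 of 11 trophoblast genes and 3 of 20 posterior mesoderm genes were called lower, and 0 of these were called higher. Sparc and Pdgfra are in both the stromal and the endoderm list, and Hand1 in both the mesoderm and the trophoblast list. Of 12 neural genes 1 was called higher and 1 lower, and of 9 Hox cofactor genes 4 were called lower and 0 higher. The part of these genes in the Hox values was not tested. Hoxb8 had a log2 difference of -2.01 ± 0.59 (SE, adjusted p = 0.0405) and was called in 4 of the 17 fits. Its level was at most 0.214 CPM in RNAPII-mut libraries and 0.037 to 0.636 CPM in WT libraries. Hoxc10 had a log2 difference of -1.21 ± 0.36 (SE, adjusted p = 0.0433) and was called in 3 of 17. Beside the lower Hoxc10, the 604 tested genes of chromosome 15 outside the Hoxc cluster had a median log2 difference of -0.26 in this comparison, against -0.03 over all genes, and its part in the Hoxc10 value was not tested. With the WT replicate series in the model Hoxd13 was also called, higher in RNAPII-mut cells (log2 difference 0.71, adjusted p = 0.012).

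**Figure D5:**
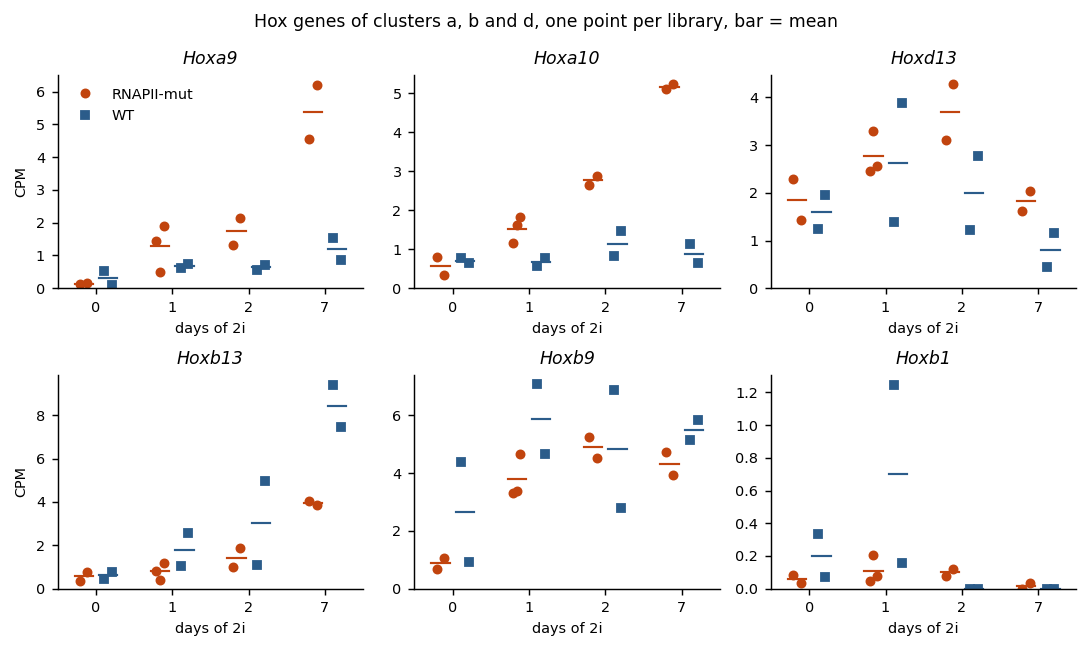
CPM of Hoxa9, Hoxa10, Hoxd13, Hoxb13, Hoxb9 and Hoxb1 at 0, 1, 2 and 7 days of 2i, with 1 point per library, circles for RNAPII-mut and squares for WT, and a bar at the mean. Hoxa10 in RNAPII-mut cells is above WT at days 1, 2 and 7, Hoxb13 at day 7 is higher in WT, and Hoxb1 is highest in 1 WT library of day 1.

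Whether the day 7 response itself differed between genotypes was tested as a difference of differences. It called 0 Hox genes and 0 of all 15365 genes with edgeR, while 11 Hox genes had an unadjusted p under 0.05, and DESeq2 called 1 Hox gene, Hoxa10. Hoxa10 had a difference in log2 response (RNAPII-mut minus WT) of 2.87 ± 0.70 (SE, adjusted p = 0.434). Hoxa7 had 2.49 ± 0.71 (SE, adjusted p = 0.536), and Hoxa9 3.37 ± 1.04 (SE, adjusted p = 0.539). By edgeR, a rise called in RNAPII-mut cells and not in WT cells, as for these 3 genes, is therefore not shown to differ between the genotypes.

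Some genes for proteins that work with Hox factors also changed at day 7. Of 9 tested cofactor genes (Pbx, Meis and Pknox, which bind DNA beside Hox proteins), 2 rose and 1 fell in each genotype. Meis2 rose to 15.2 ± 2.0 CPM at day 7 in RNAPII-mut cells, against 2.04 ± 1.03 at day 0 (SD, n = 2 each; adjusted p = 0.000593). In WT cells Meis2 rose to 16.9 ± 3.74 CPM, against 3.23 ± 0.213 (adjusted p = 0.00258). Pknox2 rose in both (adjusted p = 0.0205 in RNAPII-mut and 0.0181 in WT cells). Meis1, which works with Hoxa9 in blood progenitors, fell to 0.613 ± 0.161 CPM in RNAPII-mut cells, against 2.61 ± 0.23 at day 0 (adjusted p = 0.00283). In WT cells Meis1 fell to 1.12 ± 0.221 CPM, against 3.70 ± 0.498 (adjusted p = 0.00916). The Cdx and ParaHox list, which holds the caudal factors that switch on posterior Hox genes, had 1 gene up and 1 down of 7 in RNAPII-mut cells and 1 up and 2 down in WT cells. Cdx1 rose to 119 ± 0.27 CPM in RNAPII-mut cells at day 7, against 5.31 ± 0.845 at day 0 (adjusted p = 0.000521). In WT cells Cdx1 rose to 94.1 ± 18.2 CPM, against 4.94 ± 3.01 (adjusted p = 0.00107). Its highest level was at day 2 in RNAPII-mut replicate 2, at 251 CPM. Cdx2 had 9.79 and 8.57 CPM at day 7 and 0.803 and 0.73 at day 0 in RNAPII-mut cells (adjusted p = 0.0846), and 28.8 and 3.86 CPM at day 7 and 13.7 and 0.304 at day 0 in WT cells. Gsx1, a ParaHox gene of the brain, fell in both genotypes.

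Of 23 Polycomb genes, which encode the repressors of the Hox clusters, 3 rose and 3 fell in RNAPII-mut cells and 2 rose and 3 fell in WT cells. Phc1, a subunit of Polycomb complex 1, fell to 271 ± 35.5 CPM in RNAPII-mut cells at day 7, against 805 ± 102 at day 0 (adjusted p = 0.000157). In WT cells Phc1 fell to 351 ± 18.1 CPM, against 582 ± 2.81 (adjusted p = 0.0126). Bmi1 and Cbx8, also of complex 1, rose in RNAPII-mut cells, with log2 differences of 1.70 and 2.13. Bmi1 rose in WT cells as well (log2 difference 1.01, adjusted p = 0.0251). Phf19 and Jarid2, partners of complex 2, fell in both genotypes. Of 14 genes of Trithorax complexes and H3K27 demethylases, 2 rose in RNAPII-mut cells (Wdr5 and Kdm6b) and 1 in WT cells (Wdr5). Of 17 retinoic acid genes, 2 rose and 2 fell in RNAPII-mut cells and 0 rose and 1 fell in WT cells. The receptor Rarg fell to 61.1 ± 4.33 CPM in RNAPII-mut cells, against 384 ± 109 at day 0 (adjusted p = 0.00197). In WT cells Rarg fell to 58.8 ± 22.2 CPM, against 307 ± 217 (adjusted p = 0.00528). The median log2 differences of the cofactor, Polycomb, Trithorax and retinoic acid lists were -0.13, 0.14, 0.09 and -0.21 in RNAPII-mut cells and -0.13, -0.09, -0.08 and 0.13 in WT cells, against 0.00 and -0.01 over all genes. Of 14 tested neighbours of the clusters, 0 were called in RNAPII-mut cells and Evx1 fell in WT cells. The count table held 0 of the 21 antisense RNAs and microRNAs of the clusters that were looked for by name, so they could not be analysed.

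Marker lists of other cell types are given beside the Hox genes as values whose part in the Hox results was not tested. Over all genes, 7.2% rose and 6.96% fell in RNAPII-mut cells at day 7 against day 0, and 6.62% rose and 6.1% fell in WT cells. In that comparison 2 of 20 posterior mesoderm genes rose and 1 fell in RNAPII-mut cells, and 0 rose and 2 fell in WT cells. Of 16 stromal and smooth muscle genes, 3 rose and 0 fell in RNAPII-mut cells and 2 rose and 2 fell in WT cells. Of 14 primitive endoderm genes, 1 rose and 0 fell in RNAPII-mut cells and 0 rose and 1 fell in WT cells. Of 12 neural genes, 0 rose and 2 fell in RNAPII-mut cells and 0 rose and 3 fell in WT cells, and of 11 trophoblast genes 2 rose and 0 fell in RNAPII-mut cells and 2 rose and 1 fell in WT cells. The median log2 differences of the mesoderm, stromal, endoderm, neural and trophoblast lists were -0.15, -0.08, -0.24, -0.86 and 0.77 in RNAPII-mut cells and -1.38, -2.65, -0.69, -1.55 and -0.86 in WT cells, against 0.00 and -0.01 over all genes in RNAPII-mut and WT cells. Counts such as 2 of 20 or 1 of 14 lie near the share over all genes. The pluripotency list had 3 of 7 up in each genotype, namely Tfcp2l1, Klf4 and Nanog, the last with a log2 difference of 1.61 in RNAPII-mut cells (adjusted p = 0.0012) and 1.18 in WT cells (adjusted p = 0.00847). The library with the highest CPM of each Hox gene was mutant day 7 replicate 2 for 11 genes and WT day 1 replicate 1, which carries mesoderm transcripts, for 7. The summed posterior mesoderm level was 235 CPM in WT day 0 replicate 1 and 189 CPM in WT day 1 replicate 1, against 22.4 to 66.8 CPM in the other libraries.

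The promoters of the Hox genes were looked at because many of them rose together. RefSeq (GRCm38.p6) promoter windows of 300 bases around an annotated start of a gene were on hand for 22 Hox genes in 24 windows. Their median number of CpG dinucleotides was 14.5 (range 4 to 45), against 7 over 32851 windows of 27025 genes, and their median GC content 57.7%, against 52.7%. Of the 24 windows, 5 (20.8%) held the Cdx site letters TTTATG on either strand, against 11.9% of all windows. The TCF and LEF letters CTTTGA were in 16.7%, against 16%, and the HOX and PBX letters TGATNNAT in 16.7%, against 8.85%. The Cdx letters were in windows of Hoxa7, Hoxb8, Hoxd3, Hoxd4 and Hoxd11. Of these genes only Hoxa7 rose in RNAPII-mut cells at day 7, and Hoxd4 had 0 counts in every library. Among the Hoxc genes only Hoxc4 had a window. Matches of this kind describe letters in these windows only. The windows below belong to 3 genes that rose at day 7 in RNAPII-mut cells (Hoxc4, Hoxa7, Hoxa9) and to Hoxd13, which did not, and capitals mark CpG dinucleotides. The Hoxa7 window has TTTATG at 2 places, and the others have none. Hoxc4 lies at chr15:103034145-103034444 on the plus strand with 9 CpG, Hoxa7 at chr6:52218524-52218823 on the minus strand with 9, Hoxa9 at chr6:52227321-52227620 on the minus strand with 4, and Hoxd13 at chr2:74667975-74668274 on the plus strand with 37. By GENCODE the genes start at 103018934 (Hoxc4), 52221854 (Hoxa7) and 52231089 (Hoxa9), so these 3 windows lie inside their genes. The Hoxd13 window lies just before its gene, which starts at 74668310. CpG and GC values of the 4 windows are therefore from unlike positions.
Hoxc4: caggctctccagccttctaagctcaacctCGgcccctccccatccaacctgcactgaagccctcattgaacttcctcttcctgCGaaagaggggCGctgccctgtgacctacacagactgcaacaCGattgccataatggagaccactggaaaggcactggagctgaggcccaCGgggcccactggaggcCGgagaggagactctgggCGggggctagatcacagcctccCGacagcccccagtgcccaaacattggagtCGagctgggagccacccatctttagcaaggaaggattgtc
Hoxa7: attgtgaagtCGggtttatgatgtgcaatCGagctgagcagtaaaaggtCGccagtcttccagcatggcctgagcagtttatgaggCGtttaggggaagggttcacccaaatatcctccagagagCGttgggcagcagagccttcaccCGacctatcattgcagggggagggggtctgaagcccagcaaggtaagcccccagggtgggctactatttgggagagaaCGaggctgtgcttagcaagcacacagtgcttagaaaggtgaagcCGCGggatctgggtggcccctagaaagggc
Hoxa9: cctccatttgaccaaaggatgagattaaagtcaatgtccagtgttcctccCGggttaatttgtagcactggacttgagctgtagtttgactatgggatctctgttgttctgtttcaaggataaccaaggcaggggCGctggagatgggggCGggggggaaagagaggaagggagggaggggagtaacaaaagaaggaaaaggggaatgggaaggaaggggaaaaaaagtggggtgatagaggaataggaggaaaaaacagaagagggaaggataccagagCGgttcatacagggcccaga
Hoxd13: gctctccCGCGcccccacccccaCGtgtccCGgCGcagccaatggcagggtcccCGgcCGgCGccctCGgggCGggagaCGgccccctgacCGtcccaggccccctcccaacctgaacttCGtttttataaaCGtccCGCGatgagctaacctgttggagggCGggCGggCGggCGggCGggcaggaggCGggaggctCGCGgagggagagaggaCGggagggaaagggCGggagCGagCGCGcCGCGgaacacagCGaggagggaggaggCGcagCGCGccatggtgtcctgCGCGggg
In GC content the Hoxd13 window reaches 74.3%, the highest of these 4.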

How the data were processed

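The authors deposited raw counts per gene for 17 libraries in a single table, and all its sample columns were used. STAR, deepTools and the mm10 build are named, without versions, per the submitters' processing notes; the counting tool, annotation and strand setting are not given in the sources used here. Libraries were sequenced on DNBSeq per the labels' protocols. Groups come from the sample titles.

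Counts were tested with edgeR 4.0.16 in R 4.3.3 (TMM scaling, filterByExpr with a minimum count of 10 on the 8 groups, quasi-likelihood fit of 1 coefficient per group over all 17 libraries, 12 contrasts), with Benjamini-Hochberg adjustment over 15365 genes and a threshold of 0.05. The fit had 9 residual degrees of freedom and a common biological coefficient of variation of 0.333. Alternatives were RLE scaling, DESeq2 1.42.0, no filter, terms for the replicate number, and leaving out libraries. The scripts were tested on simulated data. CPM uses TMM-scaled library sizes. Figures and summaries were made with Python 3.11.15. Gene spans, strands and exonic lengths come from the GENCODE annotation of mm10.

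Same-numbered libraries were compared by the correlation of their deviations from group means: r was 0.24 to 0.74 over 12 pairs of WT libraries, -0.34 to 0.17 over 12 pairs of RNAPII-mut libraries and -0.35 to 0.50 between genotypes. The numbers were therefore taken to pair libraries within WT only. In groups of 2 libraries the 2 deviations mirror each other. Replicates 1 and 2 of WT thus gave the same r for each pair of days, and the 12 WT values are not independent. Intervals are exact 95% counting intervals, the floor for a group at 0 is 3 counts over the group, and neither covers more than counting error: the reads carry no molecular identifiers, so they are not independent molecules.

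The members, 13 gene lists and tests were chosen with earlier results of these data known. Genes named with the value in each library are the 10 Hox genes with the highest mean CPM, up to 12 Hox genes called in any contrast by smallest adjusted p, and the highest gene of each cluster, while of each list at most 4 called genes are named with values. The other genes were chosen after their values were seen. A few genes that these rules would name are not reported here by name, though counts and sums include them.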

Additional observations from a re-analysis of the deposited data

How the results depend on the processing

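All 12 counts of called Hox genes were recomputed under RLE scaling, DESeq2, no filter, 2 replicate terms and with each library left out. They were also recomputed without WT day 0 replicate 1 and WT day 1 replicate 1 together, and 0 results reversed. The cause of each move was not tested. DESeq2 gave 2 genes (day 0) and 1 gene (day 7) for RNAPII-mut against WT, 12, 16 and 20 for RNAPII-mut at days 1, 2 and 7 against day 0, 3, 5 and 10 for the same WT days, and 1 for the difference of day 7 responses. With the WT replicate block (the pairing within WT) the counts were 1 at day 0 and 1 at day 7 between genotypes, 9, 12 and 20 for RNAPII-mut at days 1, 2 and 7, and 6 and 12 for WT at days 2 and 7. Under DESeq2 and under this block the counts over all genes moved in all 12 comparisons. The moves of the Hox counts are therefore not a trait of the Hox genes alone. A replicate block over all libraries gave 0 for RNAPII-mut at day 1 against 4 without it, and moved no other count by more than 1.5 times. Without both WT libraries with mesoderm transcripts the counts were 9 and 14 for RNAPII-mut at days 1 and 2 and 0 for WT at day 2. With each library left out, the counts ranged from 9 to 19 (RNAPII-mut day 7), 0 to 11 (day 2), 0 to 6 (day 1), 4 to 8 (WT day 7), 0 to 3 (WT day 2), 0 to 1 (RNAPII-mut against WT, day 0) and 1 to 3 (mean over the days), and stayed at 0 in the other 5. Where that left a group with 1 library, its spread was taken to be that of the other groups. The counts over all genes also became lower in some of these fits. At these depths a Hox gene under 0.1 CPM rests on fewer than 10 counts a library.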
